A study of Homo sapiens with 12 samples.

Results

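MAP2K6 encodes MKK6, a kinase that switches on the p38 MAP kinases. It and 9 genes around it in the p38 pathway were followed in cells labelled HEK293T after knockdown of CARM1 or of NuRD complex subunits. The genes were taken by name, as the paralogue of MAP2K6 (MAP2K3), a kinase shared with the JNK pathway (MAP2K4), an upstream kinase (MAP3K5), the 4 p38 kinases (MAPK11, MAPK12, MAPK13 and MAPK14), a p38 substrate (MAPKAPK2) and a phosphatase of p38 (DUSP1). MAP2K6 was chosen by its measured RNA level, which had been seen to be low in all 5 knockdowns, so its values against siCTL are given as a description with no test. These are 10 of the 60660 gene identifiers counted, and all 10 were among the 12830 coding genes tested, defined as those whose mean FPKM (counts scaled to exonic length and library size) exceeded 0.5 in 1 or more groups. MAP2K6 passed that minimum through the groups in which it was high, as its FPKM was 2.45 in siCTL and 0.177 in siCHD4.

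In the p38 pathway, stress and inflammatory signals reach MAP3 kinases such as MAP3K5 (ASK1), which phosphorylate the dual-specificity kinases MKK3 and MKK6. These in turn phosphorylate p38α, β, γ and δ, encoded by MAPK14, MAPK11, MAPK12 and MAPK13. MKK4, encoded by MAP2K4, mainly activates JNK and can also act on p38. Active p38 phosphorylates kinases such as MK2, encoded by MAPKAPK2, and transcription factors, and it is switched off by MAP kinase phosphatases such as DUSP1. The pathway works largely by phosphorylation, so the RNA levels below give the amount of message for each component and not its activity.

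The 12 libraries, in 6 groups of 2, came from cells labelled HEK293T. That line derives from human embryonic kidney cells and carries the SV40 large T antigen. The paper names HEK293 cells for its RNA-seq. The controls, whose genotype is given as WT, received siCTL, and the others received siCARM1, siCHD4, siHDAC2, siGATAD2A or siKDM1A, siRNAs against an arginine methyltransferase (CARM1), the NuRD ATPase (CHD4), a deacetylase (HDAC2), a NuRD zinc finger protein (GATAD2A) and a demethylase (KDM1A). All groups were grown in the same medium without further treatment, and the comparison asks how loss of CARM1 and of NuRD subunits alters transcription. The labels do not say that replicates came from separate cultures, so p-values measure the spread between these libraries, which may be technical. The methods list more than 1 siRNA sequence for CARM1 and do not say which was used for RNA-seq. Cell line and knockdown were checked first. Of genes expected in HEK293 cells, LHX1 and NEFL were over 0.5 FPKM in every library, while PAX2 and NEFM stayed under it and INA lay between 0.0644 and 1.23. Of 10 markers of other cells, 7 stayed under 0.5 FPKM in every library, and GATA3 (3.01 to 5.05), COL1A1 (8.23 to 13.6) and COL3A1 (0.538 to 3.13) did not. The targeted RNA was at 19.2% of siCTL for CARM1, 19.7% for HDAC2, 29.8% for GATAD2A and 16.6% for KDM1A, but at 68.9% for CHD4. In the annotation used here, 46.9% of the exonic bases of CHD4 are shared with another gene on the same strand. Reads from those bases could be assigned to neither gene, so the CHD4 value may not measure the knockdown. Counts on genes ranged from 19308315 to 28648657 per library, with a median of 24292682.

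The sequences just upstream of the MAP2K6 start sites are shown because this gene carries the description, with those of its paralogue MAP2K3 and of MAPK11, the p38 gene that was called most often. They are the 250 bases before RefSeq starts, from the table built on GRCh38.p14 and located here by exact match in GRCh37, written 5′ to 3′ on the strand of the gene with every CG in capitals. MAP2K6 spans chr17:67410838-67550006 on the plus strand, and its exons are shared with no other annotated gene. Its first window lies directly upstream of the gene and its second, chr17:67498153-67498402, lies within the gene body. The MAP2K3 window belongs to a gene annotated at chr17:21187984-21218544 on the plus strand, and it runs past the start of that annotation. The MAPK11 window belongs to a gene annotated at chr22:50702142-50709196 on the minus strand and lies within that annotation.
MAP2K6 start 1, chr17:67410588-67410837: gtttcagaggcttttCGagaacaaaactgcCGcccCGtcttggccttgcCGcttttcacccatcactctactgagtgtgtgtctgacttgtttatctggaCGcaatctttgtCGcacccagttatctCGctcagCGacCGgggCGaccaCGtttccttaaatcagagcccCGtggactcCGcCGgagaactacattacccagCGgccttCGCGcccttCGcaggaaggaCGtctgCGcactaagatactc
MAP2K6 start 2, chr17:67498153-67498402: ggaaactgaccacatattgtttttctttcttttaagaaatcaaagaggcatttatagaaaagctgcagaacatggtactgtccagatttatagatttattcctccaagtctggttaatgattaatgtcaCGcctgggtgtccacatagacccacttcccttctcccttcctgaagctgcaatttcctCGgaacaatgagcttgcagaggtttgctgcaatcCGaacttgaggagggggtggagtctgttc
MAP2K3 start 1, chr17:21187773-21188022: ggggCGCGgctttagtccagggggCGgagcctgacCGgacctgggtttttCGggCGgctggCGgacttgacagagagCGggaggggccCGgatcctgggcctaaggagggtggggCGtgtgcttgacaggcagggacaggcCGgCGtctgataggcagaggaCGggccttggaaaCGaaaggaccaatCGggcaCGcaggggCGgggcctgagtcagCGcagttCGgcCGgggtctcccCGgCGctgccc
MAPK11 start 1, chr22:50708810-50709059: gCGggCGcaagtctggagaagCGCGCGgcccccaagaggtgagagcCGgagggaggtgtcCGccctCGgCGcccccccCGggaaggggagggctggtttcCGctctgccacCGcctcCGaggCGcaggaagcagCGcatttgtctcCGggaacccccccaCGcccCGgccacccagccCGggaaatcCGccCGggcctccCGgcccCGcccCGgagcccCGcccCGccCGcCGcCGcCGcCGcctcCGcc
These windows hold 20, 3, 22 and 32 CG pairs in the order shown, against a median of 16 in 22199 windows of coding genes, and their GC content was 55.6%, 43.2%, 70.4% and 79.2% against a median of 62%. The second MAP2K6 window was thus the poorest in CG of the 4. Windows were found for 9 of the 10 genes, 12 in all. MAPKAPK2 is only named. The letters TGACGTCA, a cAMP response element, were in 1 of the 12 windows, that of DUSP1, and in 2.01% of all windows, with both strands searched for every motif. The GC box letters GGGCGG were in 10 of the 12 and in 53.7% of all, CCAAT was in 2 and in 32.7%, TATAAA was in 2 and in 9.0%, and the AP-1 letters TGANTCA were in 1, that of MAP2K3, and in 5.36%. Such matches describe the letters only.

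MAP2K6 was lower than in siCTL after every knockdown, and the depth of the loss differed greatly between them. In CPM, counts scaled to the size of the library, the siCTL libraries held 42.8 and 43.8, from 782 and 952 counts. After siCHD4 the values were 3.27 and 3.15, from 74 counts in each library. After siGATAD2A they were 6.43 and 7.08, and after siKDM1A 9.23 and 8.47. The siCARM1 libraries held 17.1 and 18.7 and the siHDAC2 libraries 31.9 and 28.6. Each group was thus separate from every other, with siCTL highest and siCHD4 lowest, and siHDAC2 was the nearest to the controls. Relative to siCTL, 7.42% of the MAP2K6 RNA was left after siCHD4, 15.6% after siGATAD2A, 20.4% after siKDM1A, 41.2% after siCARM1 and 69.6% after siHDAC2. Log2 fold changes were −3.75 (SE 0.113) for siCHD4, −2.68 (SE 0.0991) for siGATAD2A, −2.29 (SE 0.0954) for siKDM1A, −1.28 (SE 0.0858) for siCARM1 and −0.52 (SE 0.0811) for siHDAC2. Counted from the most negative value among the 12830 genes, MAP2K6 was number 3 in siCHD4, 5 in siGATAD2A, 10 in siKDM1A, 66 in siCARM1 and 420 in siHDAC2. The neighbours closest in this order were siGATAD2A and siKDM1A, which differed by −0.39 (SE 0.121) on the log2 scale. Genes past the thresholds used here, a Benjamini-Hochberg adjusted p up to 0.05 in edgeR and at least a 1.2-fold change, made up 1.7% of all genes when taken as those lower in all 5 knockdowns, 218 genes with MAP2K6 among them by the way it was chosen. In these bulk libraries, fewer cells that express MAP2K6 and less MAP2K6 RNA per cell cannot be told apart.

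**Figure D1:**
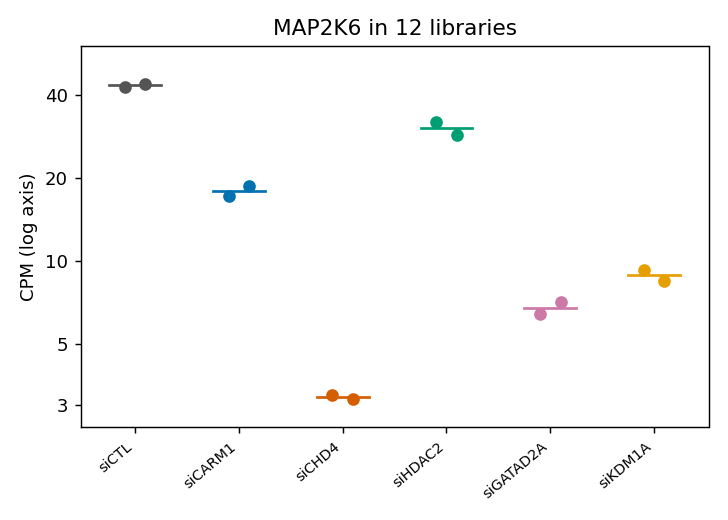
MAP2K6 in CPM on a log axis, with 1 point per library for the 6 siRNA groups. The siCTL libraries lie at 42.8 and 43.8, the siCHD4 libraries at 3.27 and 3.15, and the groups do not overlap.

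Of the other 9 genes, MAPK11 came closest to MAP2K6 in siHDAC2, with −0.51 against −0.52, and in siCARM1, with −0.87 against −1.28. In the other knockdowns MAPK11 was at −0.85 against −2.68 in siGATAD2A, −0.02 against −2.29 in siKDM1A and 0.34 against −3.75 in siCHD4. With 9 genes and 5 knockdowns there were 45 values, of which 7 were called lower, 4 higher and 34 neither. In siCARM1, 1 of the 9 was lower and 0 higher, where 14.5% of all genes were lower and 14.9% higher. In siCHD4, 0 were lower and 4 higher, against 24.9% and 24% of all genes. In siHDAC2, 3 were lower and 0 higher, against 9% and 10.6%, and in siGATAD2A 3 were lower and 0 higher, against 18.2% and 15.7%. In siKDM1A, 0 of the 9 passed edgeR's test and the fold minimum in either direction, against 11.5% lower and 14.2% higher. DESeq2 also called 0. An unadjusted edgeR p under 0.05 was found for 3 of the 9. The share of all genes under that p is not given here, so this count cannot be set against other genes. No gene of the 9 was higher in all 5 knockdowns, as 2.28% of all genes were. The median log2 fold change of the 9 was 0.25 in siCHD4, and the siCARM1 and siKDM1A medians were −0.05 and −0.06, with −0.15 for siGATAD2A and −0.21 for siHDAC2, beside medians within 0.01 of 0 over all genes tested. All 5 comparisons share the same 2 siCTL libraries.

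**Figure D2:**
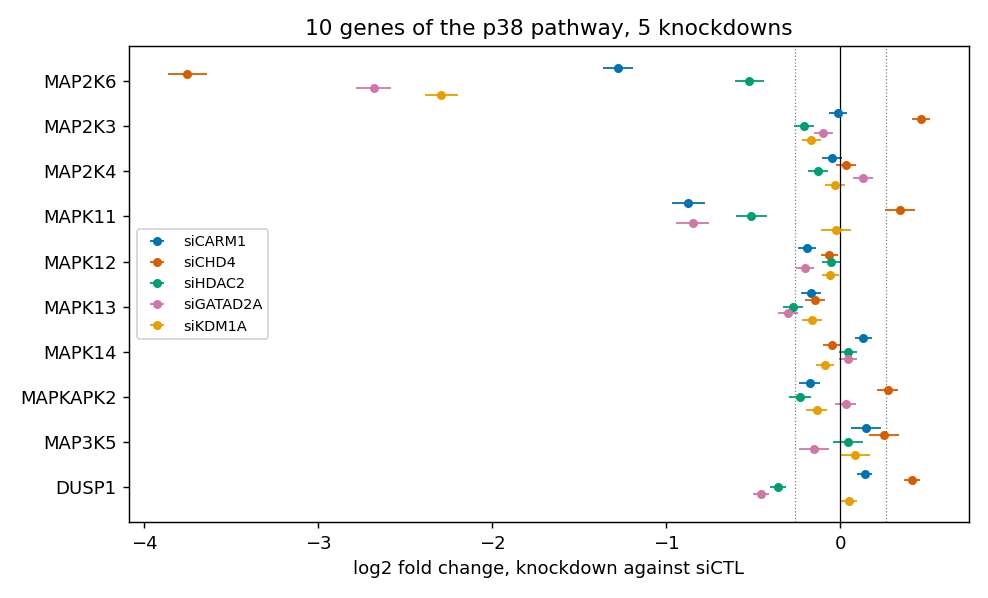
Log2 fold change against siCTL of the 10 genes in the 5 knockdowns, with bars of 1 standard error from the edgeR fit. MAP2K6 lies between −0.52 and −3.75 and the other genes between −0.87 and 0.46.

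MAP2K3, which encodes MKK3, the closest relative of MKK6 and the other main activator of p38, was called lower in no knockdown. The siCTL libraries held 81.2 and 79.5 CPM. The siCHD4 libraries held 111.52 and 110.06, above both controls. The siCARM1 libraries held 81.5 and 77.4, the siHDAC2 libraries 68.9 and 70.0, the siGATAD2A libraries 76.3 and 73.7 and the siKDM1A libraries 74.6 and 68.5. MAP2K3 was thus highest in the knockdown with the least MAP2K6, and it rose there by a log2 fold change of 0.46 (SE 0.0529, adjusted p = 5.5e-09 by edgeR). It was not called in the others, where log2 fold changes were −0.01 in siCARM1, −0.10 in siGATAD2A, −0.17 in siKDM1A and −0.21 in siHDAC2. The values in siKDM1A and siHDAC2 had adjusted p of 0.014 and 0.0034 by edgeR, with folds of 1.12 and 1.16 that are under the minimum. In these knockdowns and in siGATAD2A both libraries lay below both controls. Between knockdowns, MAP2K3 passed in the 4 pairs that hold siCHD4, with differences of 0.48 from siCARM1 to 0.67 from siHDAC2 on the log2 scale, and in no other pair.

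Per exonic length, MAP2K6 was the minor of these messages even in the controls. It made up 10.9% ± 0.310 (SD, n = 2) of the summed FPKM of MAP2K3 and MAP2K6 in siCTL. This share was 8.98% ± 0.707 in siHDAC2, 4.86% ± 0.460 in siCARM1, 2.72% in both siKDM1A libraries, 2.0% ± 0.182 in siGATAD2A and 0.652% ± 0.0106 in siCHD4. The sum itself stayed closer to siCTL, with 22.6 FPKM in siCTL, 27.2 in siCHD4, 20.9 in siCARM1, 19.0 in siHDAC2, 19.1 in siGATAD2A and 18.4 in siKDM1A. On this scale the sum in siCHD4 was above siCTL. In CPM, which is not divided by length and also uses TMM library factors, it was below, with 114 against 124. The shares too depend on the length assigned to each gene. With the canonical transcript in place of all exons, MAP2K6 made up 8.31% in siCTL and 0.485% in siCHD4, and the order of the groups was as before.

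**Figure D3:**
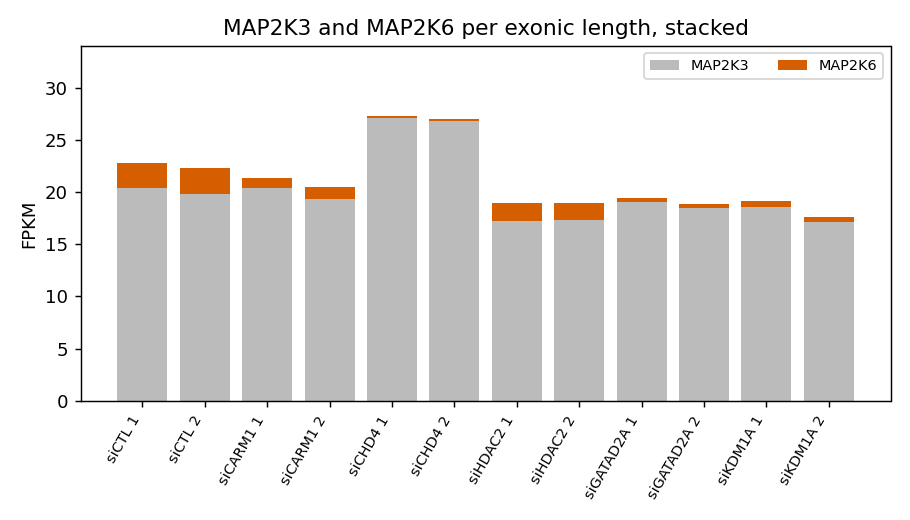
FPKM of MAP2K3 (grey) and MAP2K6 (orange) stacked for each of the 12 libraries, so that the height of a bar is their sum. The orange part is 10.9% of the bar on average in siCTL and 0.652% in siCHD4, and the siCHD4 bars are the tallest.

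MAP2K4, whose product MKK4 acts on JNK and p38, was called in no comparison. Its 12 libraries ranged from 83.6 CPM in siHDAC2 to 103 CPM in siGATAD2A, and siCTL held 92.8 and 94.3. The siGATAD2A libraries, with 102 and 103, lay above both controls, with a log2 fold change of 0.13 (SE 0.0565, adjusted p = 0.053 by edgeR). None of the 10 pairs of knockdowns passed the thresholds for MAP2K4. Its only annotated processed pseudogene by name, MAP2K4P1, had at most 3 counts in any library.

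MAP3K5, the stress-responsive kinase ASK1 upstream of MKK3, MKK4 and MKK6, was called in no knockdown. The siCTL libraries held 18.7 and 18.5 CPM and the siCHD4 libraries 21.9 and 22.4, the highest of the 6 groups. The siGATAD2A libraries were the lowest with 16.4 and 17.1. Its log2 fold change in siCHD4 was 0.25 (SE 0.0848, adjusted p = 0.0104 by edgeR), a fold of 1.19 that falls just under the minimum of 1.2. Between knockdowns, MAP3K5 was lower in siGATAD2A than in siCHD4, by 0.40 (SE 0.0840, adjusted p = 0.00012 by edgeR), and than in siCARM1, by 0.30 (SE 0.0845, adjusted p = 0.0036 by edgeR).

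The 4 p38 genes did not move as a group. MAPK11 (p38β) fell in 3 knockdowns and rose in 1, MAPK13 (p38δ) fell slightly in 2, and MAPK12 (p38γ) and MAPK14 (p38α) passed in none. MAPK11 and MAPK12 are neighbours on chromosome 22, with 1996 bases between them, and MAPK14 and MAPK13 on chromosome 6, with 16572 bases between them. In neither pair were both neighbours called.

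MAPK11 had 30.6 and 29.8 CPM in siCTL. The siCARM1 libraries held 16.4 and 16.6 and the siGATAD2A libraries 16.6 and 16.9. The siHDAC2 libraries held 18.7 and 23.3, the siKDM1A libraries 31.9 and 27.5 and the siCHD4 libraries 39.0 and 37.5. The siCARM1, siGATAD2A and siHDAC2 libraries were thus all below the controls, the siCHD4 libraries above them and the siKDM1A libraries on both sides. MAPK11 fell by 0.87 on the log2 scale in siCARM1 (SE 0.0938, adjusted p = 5.6e-09 by edgeR), by 0.85 in siGATAD2A (SE 0.0935, adjusted p = 5.8e-09) and by 0.51 in siHDAC2 (SE 0.0908, adjusted p = 5.1e-05). It rose by 0.34 in siCHD4 (SE 0.0849, adjusted p = 0.00077) and was at −0.02 in siKDM1A (adjusted p = 0.85). In 9 of the 10 pairs of knockdowns MAPK11 differed past the thresholds, and the share of all genes that did so varied from pair to pair. It was 47.7% for siCARM1 and siCHD4, 19.3% for siCARM1 and siHDAC2, 33.8% for siCARM1 and siGATAD2A and 21% for siCARM1 and siKDM1A. With siCHD4 as the other side, it was 48.8% for siHDAC2, 44.8% for siGATAD2A and 47.7% for siKDM1A. It was 29.5% for siHDAC2 and siGATAD2A, 14.3% for siHDAC2 and siKDM1A and 32.1% for siGATAD2A and siKDM1A. The exception was siCARM1 and siGATAD2A, which differed by −0.02 (SE 0.0993, adjusted p = 0.85 by edgeR). MAPK11 and MAP2K6 therefore ordered the knockdowns differently, as siCHD4 held the least MAP2K6 and the most MAPK11.

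MAPK13 had 79.3 and 84.2 CPM in siCTL, and all 10 knockdown libraries were below both, from 64.4 in siGATAD2A to 75.4 in siCHD4. The log2 fold change was −0.30 in siGATAD2A (SE 0.0573, adjusted p = 5.9e-05 by edgeR) and −0.27 in siHDAC2 (SE 0.0573, adjusted p = 0.00043), the knockdowns in which MAPK13 was called. In the other knockdowns it was −0.17 in siCARM1, −0.16 in siKDM1A and −0.14 in siCHD4. Their adjusted p were 0.014, 0.021 and 0.027 by edgeR, so only a fold under 1.2 kept them from being called. Both calls lie close to that minimum. Without siCTL replicate 2, the higher of the controls, they were −0.26 and −0.23 and neither passed. The call in siGATAD2A was also lost without siGATAD2A replicate 2, at −0.26, and that in siHDAC2 without siHDAC2 replicate 1, at −0.23. No pair of knockdowns passed for MAPK13. MAPK12 ranged from 100.3 CPM in siGATAD2A to 120 in siCTL and MAPK14 from 101 in siKDM1A to 126 in siCARM1. The largest log2 fold changes of MAPK12 were −0.20 in siGATAD2A (adjusted p = 0.0012 by edgeR) and −0.19 in siCARM1 (adjusted p = 0.0021), and that of MAPK14 was 0.13 in siCARM1 (adjusted p = 0.034), all under the fold of 1.2. Of the exonic bases of MAPK12, 29.7% are shared with HDAC10 on the same strand, and reads there could be assigned to neither gene. Which p38 message was most abundant depended on the length used. In siCTL, MAPK14 was highest with 15.3 FPKM and MAPK11 lowest with 10.6 over all exons, while with canonical transcripts MAPK12 was highest with 61.3.

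MAPKAPK2 encodes MK2, the kinase through which p38 stabilises many inflammatory messages. The siCTL libraries held 61.4 and 68.0 CPM and the siCHD4 libraries 77.1 and 79.5. The siHDAC2 libraries, with 52.4 and 57.6, had the lowest mean of the 6 groups and overlapped siCARM1. MAPKAPK2 rose by a log2 fold change of 0.27 in siCHD4 (SE 0.0594, adjusted p = 0.00019 by edgeR), a fold of 1.21, and in siHDAC2 it was at −0.23 (SE 0.0613, adjusted p = 0.0036), a fold of 1.17. The controls differed from each other here, and without siCTL replicate 1 the rise in siCHD4 was 0.20 and did not pass, while the value in siHDAC2 was −0.30 and did. Without siCHD4 replicate 2 the rise was 0.24 and did not pass, and without siHDAC2 replicate 2 the value in siHDAC2 was −0.31 and passed. Between knockdowns, siCHD4 exceeded siCARM1, siHDAC2 and siKDM1A past the thresholds, the largest of these differences being 0.50 (SE 0.0595, adjusted p = 1.1e-08 by edgeR) from siHDAC2.

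DUSP1 encodes MKP-1, a phosphatase in the nucleus that inactivates p38 and JNK and that is itself induced by stress. It was the most abundant of the 10 messages, with 91.7 FPKM in siCTL. The siCTL libraries held 195.25 and 195.46 CPM. The siCHD4 libraries held 267 and 254 and the siCARM1 libraries 224 and 206, while the siHDAC2 libraries held 149.6 and 154.5 and the siGATAD2A libraries 141 and 144. The siKDM1A libraries, with 200.19 and 205, were the nearest to siCTL. No knockdown group overlapped the controls, and siHDAC2 and siGATAD2A lay below them while the other groups lay above. DUSP1 rose by 0.41 on the log2 scale in siCHD4 (SE 0.0449, adjusted p = 2.1e-09 by edgeR), and it fell by 0.45 in siGATAD2A (SE 0.0462, adjusted p = 1.1e-09) and by 0.36 in siHDAC2 (SE 0.0461, adjusted p = 3.3e-07). The values of 0.14 in siCARM1 (adjusted p = 0.012) and 0.05 in siKDM1A (adjusted p = 0.39) did not pass. DUSP1 differed in 8 of the 10 pairs of knockdowns, and the pairs that did not pass were siHDAC2 and siGATAD2A (0.09, SE 0.0465) and siCARM1 and siKDM1A (0.09, SE 0.0448). The siCHD4 libraries thus held the most MAP2K3, MAPK11, MAPKAPK2, MAP3K5 and DUSP1 of the 6 groups and the least MAP2K6.

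**Figure D4:**
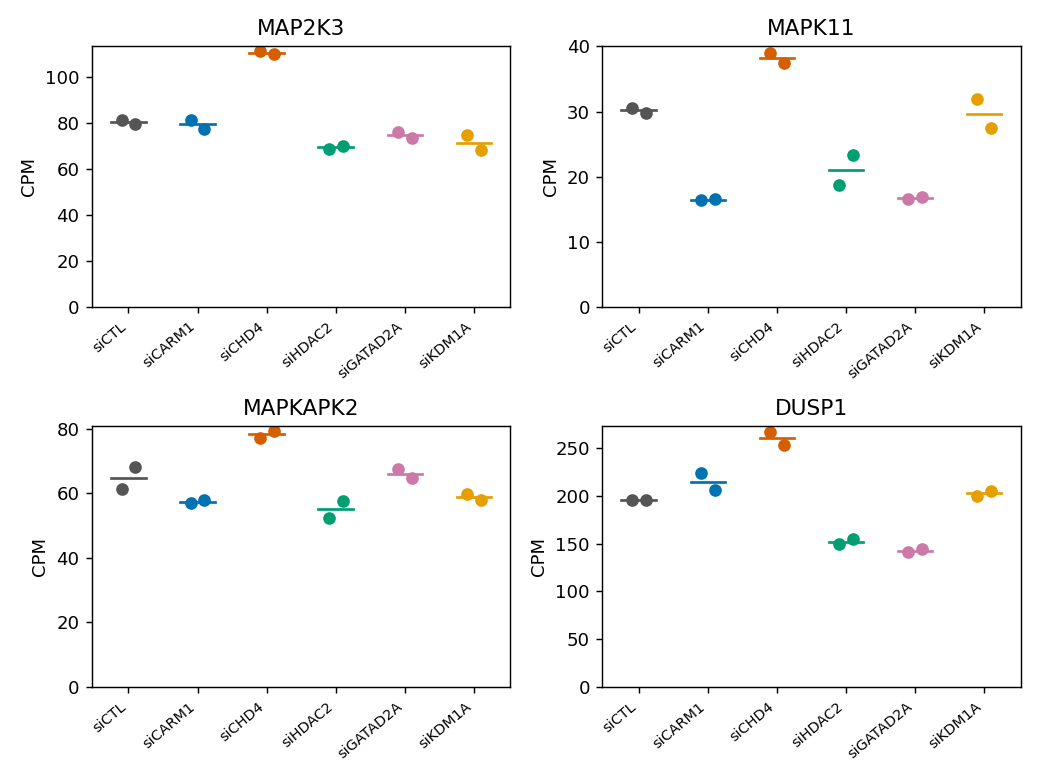
CPM of MAP2K3, MAPK11, MAPKAPK2 and DUSP1, with 1 panel per gene, 1 point per library and each axis starting at 0. Of the genes shown, MAPK11 and DUSP1 have the widest separation between groups.

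A wider list of 68 other genes of the pathway was drawn up by role, of which 65 were tested (MAPK10, PTPN7 and PTPRR were too low). In siCARM1, 7 of the 65 were lower and 7 higher, which is 21.5% against 29.4% of all genes. In siCHD4, 13 were lower and 21 higher, 52.3% against 48.8%. In siHDAC2, 12 were lower and 5 higher, 26.2% against 19.6%, in siGATAD2A 9 and 15, 36.9% against 33.9%, and in siKDM1A 10 and 7, 26.2% against 25.7%. The medians of the list lay between −0.08 (siCARM1) and 0.03 (siGATAD2A) on the log2 scale.

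Among upstream kinases and adaptors, MAP3K2 rose in all 5 knockdowns, by 0.28 in siHDAC2 and siGATAD2A up to 0.56 in siCARM1. MAP3K12, the kinase DLK, fell in 4, by up to 1.15 in siCHD4, and was at 0.05 in siKDM1A. MAP3K6, the kinase ASK2 that pairs with MAP3K5, went from 52.8 and 53.0 CPM in siCTL to 17.9 and 17.8 in siCHD4, where it fell by 1.57 (SE 0.0727, adjusted p = 5.3e-18 by edgeR). MAP3K6 was also called lower in siGATAD2A, by 0.61, and in siCARM1, by 0.36. GADD45B, a stress-induced activator of the kinase MAP3K4, had 32.0 and 37.2 CPM in siCTL and 75.7 and 74.2 in siCHD4, and it rose in the knockdowns other than siHDAC2. Its relative GADD45G was low, with a mean of 5.86 CPM in siCTL, and fell by 0.87 in siKDM1A (SE 0.205, adjusted p = 0.00094 by edgeR) and by 0.69 in siCHD4 (SE 0.201, adjusted p = 0.0033). The scaffold gene MAPK8IP1 fell by 0.50 in siCARM1 and by 0.51 in siKDM1A.

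Of the transcription factors that p38 phosphorylates, ELK4 rose in all 5 knockdowns, by 0.35 in siGATAD2A and siKDM1A up to 0.54 in siCHD4. MEF2C, a MADS-box factor that is a classical p38 substrate, had 8.04 and 6.49 CPM in siCTL and rose in 4 knockdowns, most in siGATAD2A with 14.96 and 15.4 CPM, a log2 fold change of 1.07 (SE 0.128, adjusted p = 2.9e-08 by edgeR). In siCHD4 its libraries held 7.42 and 5.79 CPM and overlapped the controls.

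The phosphatases, which act against MAP kinases, held the largest rise on the list in siCARM1, siCHD4 and siGATAD2A. Of the 12 tested, 3 were lower and 7 higher in siCHD4, 6 lower and 1 higher in siHDAC2, 4 and 5 in siGATAD2A, 2 and 2 in siKDM1A and 1 and 1 in siCARM1. Over all genes the shares lower and higher were 24.9% and 24% in siCHD4, 9% and 10.6% in siHDAC2, 18.2% and 15.7% in siGATAD2A, 11.5% and 14.2% in siKDM1A and 14.5% and 14.9% in siCARM1. DUSP5, which acts on ERK in the nucleus, had 11.98 and 10.95 CPM in siCTL. It had 82.4 and 82.8 CPM in siCHD4 and rose by 2.85 (SE 0.0825, adjusted p = 3.6e-23 by edgeR), while in siHDAC2 it had 6.29 and 7.75 CPM and fell by 0.68 (SE 0.112, adjusted p = 1.7e-05). DUSP5 was also called higher in siGATAD2A, by 0.98, and in siKDM1A, by 0.69. DUSP2, also a nuclear phosphatase, rose by 2.14 in siCHD4 and by 1.06 in siCARM1 and fell by 0.91 in siHDAC2, from a mean of 3.61 CPM in siCTL. DUSP6, a phosphatase of ERK in the cytoplasm, rose by 1.94 in siCHD4 and by 1.14 in siGATAD2A and fell by 1.02 in siHDAC2 (SE 0.349, adjusted p = 0.022 by edgeR), on 15 to 151 counts per library. The siHDAC2 and siCTL libraries of DUSP6 did not overlap but lay close, with 21 and 15 counts against 22 and 42. DUSP8, a phosphatase of JNK and p38, rose in 4 knockdowns, by up to 1.32 in siGATAD2A (SE 0.101, adjusted p = 2.0e-12 by edgeR). DUSP9 fell in 4, from 54.4 and 53.2 CPM in siCTL to 27.7 and 26.4 in siGATAD2A, a log2 fold change of −0.99 (SE 0.0702, adjusted p = 4.1e-13 by edgeR). In siCHD4, where it was not called, DUSP9 was at −0.20.

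**Figure D5:**
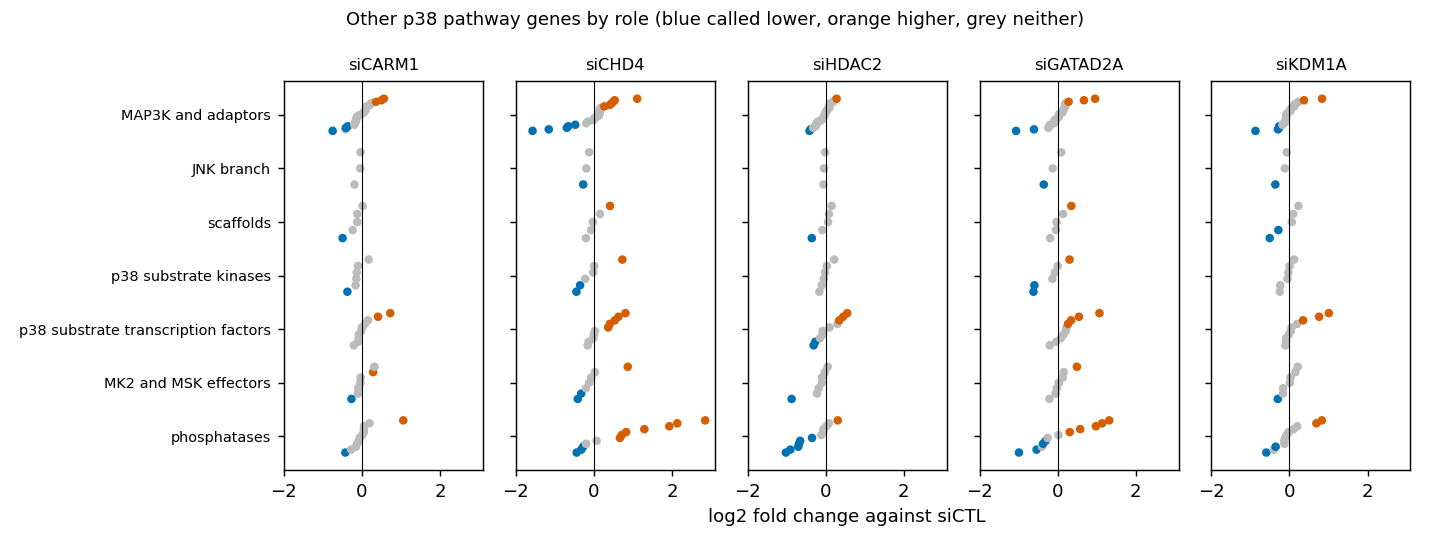
Log2 fold change against siCTL of the other p38 pathway genes, with 1 panel per knockdown and 1 row per role, where each point is a gene coloured by its call (blue lower, orange higher, grey neither). The phosphatase row spreads widest in siCHD4, out to DUSP5 at 2.85.

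The genes next to MAP2K6 on chromosome 17 were examined as well. Of 11 coding genes within 1 Mb of MAP2K6, 5 were tested. In siCHD4 all 5 of them fell, against 24.9% of all genes, by 0.50 for ARSG, 0.57 for WIPI1, 0.73 for PRKAR1A, 0.94 for ABCA5 and 0.85 for KCNJ2. MAP2K6, at −3.75, was still far lower than any of them. ARSG and KCNJ2 were low in the siCTL libraries, with 81 and 121 counts for ARSG and 44 and 61 for KCNJ2. In siGATAD2A, where MAP2K6 was at −2.68, 0 of the 5 were lower and 1 higher, against 18.2% and 15.7% of all genes. In siKDM1A, where it was at −2.29, 1 was lower and 1 higher, against 11.5% and 14.2%. In siCARM1 1 was lower and 2 higher, against 14.5% and 14.9%, and in siHDAC2 0 were lower and 1 higher, against 9% and 10.6%. ABCA5, the nearest of the 5 at 87.5 kb, had 60.9 CPM in siCTL and was at −0.12, −0.17, −0.22 and −0.09 in the knockdowns other than siCHD4, and was called in none of these.

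By Pearson r of log2 CPM over the 12 libraries, genes among those most like MAP2K6 were LMNB1 (r = 0.981), MAGED1 (0.977), GAMT (0.973) and LRRC45 (0.972). The 12 points share 6 groups and are not independent, so the values describe likeness only. Their log2 fold changes were smaller than those of MAP2K6, in siCHD4 −0.42 for LMNB1, −0.64 for MAGED1, −1.07 for GAMT and −0.87 for LRRC45. Among the other 9 genes of the pathway set, r with MAP2K6 ran from −0.65 for MAPKAPK2 to 0.37 for MAPK14, and MAP2K3 had −0.58. By rank (Spearman rho) the values ran from −0.51 for MAPKAPK2 to 0.55 for MAPK12, and MAP2K3 had only −0.24.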

How the data were processed

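RNA was measured in 12 libraries of cells labelled HEK293T. For every library the authors deposited unnormalized counts per Ensembl gene, in 3 columns (unstranded and each strand). The submitters' processing notes name CASAVA 1.4, STAR 2.7.10 and hg19, whereas the paper's methods name TopHat, HOMER and DESeq2. The annotation behind the counts is not given in the sources used here. Read pairs with several locations are absent from such counts, so genes with close copies are undercounted.

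Reverse-strand counts were used, since the kit is directional. Identifiers were matched to GENCODE 44 on GRCh37 (58662 of 60660), and those without a match were left out. CPM, FPKM and log2 fold changes were computed here with TMM factors. Coding genes whose mean FPKM exceeded 0.5 in any group were tested by the quasi-likelihood test of edgeR 4.0.16 in R 4.3.3, with 6 group means. Calls needed a Benjamini-Hochberg adjusted p up to 0.05 over all 12830 genes and a fold of at least 1.2. The code was tested on simulated data with 200 changed genes. Alternatives were DESeq2 1.42.0, its size factors, a replicate block, only the groups compared, unstranded counts, other filters, no fold minimum, CPM for the share, each library left out and, chosen after seeing the data, canonical transcript lengths.

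Members and lists were chosen with earlier results of these data known. Named were the members, targets, markers, coding genes within 1 Mb of MAP2K6, the 5 genes most like it by Pearson r, and pathway genes called the same way in at least 4 knockdowns or among the 2 largest per direction in one. A marker and a gene of the likeness list are not reported here.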

Additional observations from a re-analysis of the deposited data

Results flagged for a closer look

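For this, 27 genes were examined (the members other than MAP2K6, the named pathway genes and the tested neighbours). Of these, 7 were called in opposite directions in different knockdowns, and the test of the difference was the edgeR contrast of those knockdowns. The share of all genes called in opposite directions is not given here. The named pathway genes were themselves picked by their calls, so the count describes the 27 genes only. The pairs were picked by their calls, so each difference has its standard error beside it but no p. On the log2 scale, MAPK11 was higher in siCHD4 than in siCARM1 by 1.22 (SE 0.0900) and DUSP1 was higher in siCHD4 than in siGATAD2A by 0.87 (SE 0.0454). DUSP2 was higher in siCHD4 than in siHDAC2 by 3.05 (SE 0.171), DUSP5 by 3.54 (SE 0.0870) and DUSP6 by 2.96 (SE 0.265). Near MAP2K6, ARSG was higher in siCARM1 than in siCHD4 by 1.30 (SE 0.158) and KCNJ2 was higher in siGATAD2A than in siCHD4 by 1.36 (SE 0.223). No group is large enough here to look for single libraries far from the rest.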

How the results depend on the processing

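No call of a member turned direction under the alternatives run, which did not cover single genes of the wider list, neighbours or pairs of knockdowns. Without the fold minimum, 6 members were called after siCHD4, 6 after siCARM1, 5 after siHDAC2, 4 after siGATAD2A and 2 after siKDM1A. Pathway genes called were then 48 for siCHD4, 38 for siGATAD2A, 26 for siHDAC2, 26 for siCARM1 and 24 for siKDM1A. The share of all genes called without that minimum is not given here. Whether these sets were called more often than other genes at this looser setting thus cannot be told. With unstranded counts, MAP2K6 was at −3.62 in siCHD4, and its share was 0.719% there and 2.74% in siKDM1A. From CPM in place of FPKM, that share was 35.0% in siCTL, 18.4% in siCARM1, 30.3% in siHDAC2, 8.27% in siGATAD2A, 2.82% in siCHD4 and 11% in siKDM1A. With canonical lengths it was 8.31%, 3.66%, 6.83%, 1.49%, 0.485% and 2.04% in the same order. MAPKAPK2 in siCHD4 did not pass with unstranded counts (0.26) or no filter (0.25), nor MAPK13 in siHDAC2 with FPKM larger than 1 (−0.26).

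With 1 library left out in turn, the members called stayed at 1 in siCARM1 and 0 in siKDM1A and ranged from 3 to 4 in siCHD4, 2 to 4 in siHDAC2 and 2 to 3 in siGATAD2A. In siHDAC2 the count was 4 without siCTL replicate 1 or siHDAC2 replicate 2 and 2 without siCTL replicate 2 or siHDAC2 replicate 1, through MAPKAPK2 and MAPK13. In siGATAD2A it was 2 without siCTL replicate 2 or siGATAD2A replicate 2, where MAPK13 was at −0.26. Pathway genes called ranged from 31 to 34 in siCHD4, 14 to 16 in siCARM1, 14 to 18 in siHDAC2, 21 to 24 in siGATAD2A and 16 to 19 in siKDM1A. The log2 fold change of MAP2K6 ranged from −3.79 to −3.73, −1.34 to −1.21, −0.60 to −0.45, −2.75 to −2.61 and −2.36 to −2.23 in these knockdowns. Where an arm had 1 library left, it was assumed to vary like the other groups.

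Deviations of samples with the same replicate number correlated by −0.14 to 0.14 over the 15 pairs of groups, with 1 above 0.1. No strong effect shared by replicate number was thus seen, but with 2 libraries per group this cannot show whether samples were prepared in pairs. With a replicate block, the members called were 4 in siCHD4, 1 in siCARM1, 3 in siHDAC2 and in siGATAD2A, and 0 in siKDM1A, as without it. With 2 libraries per group and a biological coefficient of variation of 3.47%, precision is limited by the number of libraries and, for low genes such as MAP2K6 in siCHD4 and DUSP6, by counts.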
